A study of Mus musculus with 8 samples.

Results

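The transforming growth factor beta (TGF-beta) pathway was examined in naive CD8+ T cells through 10 genes, taken by symbol from a count table of 55573 Ensembl genes: the ligand Tgfb1, the receptors Tgfbr1, Tgfbr2 and Tgfbr3, the signal carriers Smad2, Smad3 and Smad4, and the inhibitors Smad7, Ski and Skil. All 10 were in the table and all 10 passed the filter on low counts, which left 12500 genes. The cells were resting cytotoxic T lymphocytes from male mice of the C57BL/6 strain, taken from spleen and lymph nodes, enriched with a CD8a magnetic kit and sorted. Libraries labelled WT (n = 3) came from mice of 7 weeks (replicate 1) and 8 weeks (replicates 2 and 3), and libraries labelled Furin KO (n = 5) from mice of 7 weeks (replicate 1) and 8 weeks (replicates 2 to 5). No agent was given. The labels do not name the Furin allele, the cells in which it was removed, or whether every library comes from its own mouse, and p-values therefore rest on the spread from library to library, which may be partly technical.

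TGF-beta is made as an inactive precursor that FURIN, a protease of the secretory pathway, cuts into the latency peptide and the mature growth factor. The released ligand binds TGFBR2, which phosphorylates TGFBR1. TGFBR3 (betaglycan) presents the ligand to them. TGFBR1 phosphorylates SMAD2 and SMAD3, which enter the nucleus with SMAD4. SMAD7 blocks the receptors, and SKI and SKIL (SnoN) hold SMAD complexes in a repressed state. In T cells the pathway restrains activation and supports the survival of naive cells. The comparison addresses whether transcripts of this pathway differ between libraries labelled Furin KO and WT, and a transcript level does not report how much ligand is cut or bound.

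Total counts per library were 11308220 to 21040431. The cells carried CD8 and naive T cell transcripts in both groups, summed over 8 markers at 9820 to 11200 CPM (counts of a gene scaled to a common library size after TMM normalisation) in Furin KO and 9450 to 10900 CPM in WT. Sums over 5 B cell markers were at most 1.34 CPM and over 6 CD4 and regulatory T cell markers at most 25.9 CPM. The platelet genes Pf4, Ppbp, Gp1bb and Gp9 had 0 counts in every library, and the fifth, Itga2b, had 3.95 to 8.43 CPM. Other sums in Furin KO and WT were 191 to 252 and 205 to 226 CPM for 5 antigen-experienced T cell markers, nearly all from Il2rb. For 7 myeloid and dendritic cell markers they were 4.79 to 15.3 and 5.32 to 13.8 CPM. For 4 NK cell markers they were 316 to 411 and 323 to 367 CPM, and Ncr1 was at 0 and Nkg7 and Eomes gave nearly all. The sums for 5 stromal and endothelial markers were 219 to 255 and 217 to 228 CPM, nearly all from Pecam1. By edgeR, 0 of the tested markers passed, where 0.032% of all tested genes passed. Tested were 8 CD8 and naive T cell, 5 antigen-experienced and 4 CD4 and regulatory T cell markers. Of the others, 3 myeloid and dendritic, 2 NK, 2 stromal and endothelial and 1 platelet marker were tested. No B cell marker passed the filter on low counts, so none was tested. The count of Furin itself was not lower in Furin KO, at 69.3 ± 11.8 CPM (mean ± SD, n = 5) against 63.6 ± 5.71 CPM (n = 3; log2 fold change 0.12, with a 95% interval from -0.15 to 0.40, edgeR adjusted p = 1). A whole-gene count does not show which exons were read and does not check the labels, and every direction given here sets libraries labelled Furin KO against those labelled WT. The deposited column of Furin KO replicate 4 stands among the WT columns, and its label was used. The libraries were clustered by their counts over all genes and cut into 3 sets, a number fixed with earlier results known. Both genotypes stood in each set. Replicate 1 of each genotype formed the first set, and WT replicate 2 and Furin KO replicates 2 and 3 the second set. WT replicate 3 and Furin KO replicates 4 and 5 formed the third set. Pairwise distances reached 16.6 within sets and began at 16.7 between sets, so the sets are not sharply apart. The second set was low in the early gene Fos, at 85.8 to 204 CPM against 801 to 1070 CPM. The first set is also the libraries of 7-week mice, so in it set and age cannot be told apart. Genotype and age labels do not separate the second set from the third. The numbers in the sample titles run in the order of the sets, and no label says what that order stands for.

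All 10 genes were transcribed in every library. Per length of exon, Tgfbr2 stood highest at 44.1 ± 4.33 RPKM (the same value divided by exon length; n = 8, range 37.5 to 49.4), followed by Ski at 39.6 ± 4.07, Smad4 at 36.7 ± 2.11, Smad7 at 36.1 ± 5.36 and Tgfb1 at 29.4 ± 2.0 RPKM. The ranges of neighbours in this order overlapped, so neighbours are not separated by the spread between libraries. Tgfb1, at 26.8 to 32.5 RPKM, lay wholly below Tgfbr2, Ski and Smad4 and overlapped Smad7. A gap followed, from a lowest library of 26.8 RPKM for Tgfb1 to a highest of 13.1 RPKM for Smad3, which averaged 12.1 ± 0.669 RPKM. Skil, at 10.6 ± 1.47 RPKM, overlapped Smad3, and its lowest library lay above the highest of Smad2 (7.36 ± 0.869 RPKM). Tgfbr3 (6.44 ± 0.714 RPKM) and Tgfbr1 (4.40 ± 0.808 RPKM) were lowest and overlapped each other. The ligand-binding receptor and the inhibitors Ski and Smad7 were thus among the more abundant messages. The type I receptor had the lowest mean of the 10, not separated from that of Tgfbr3. With the longest transcript as the length in place of all exons, Tgfb1 (2573 against 5042 bases) moved from the fifth place to the first, at 57.7 RPKM, and Skil passed Smad3. By CPM, which is not scaled by length, the 10 genes lay between the percentiles 51.3 (Tgfbr1) and 96.2 (Tgfbr2) of all tested genes.

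**Figure D1:**
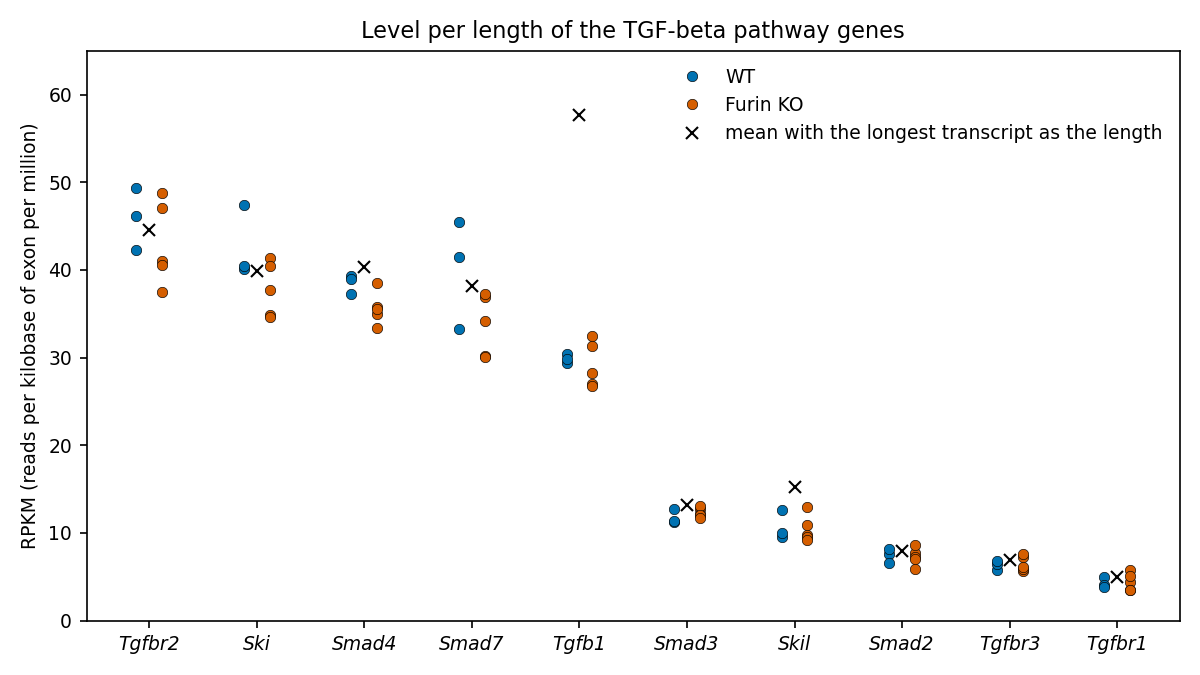
Level per length (RPKM) of the 10 genes in each WT (blue, n = 3) and Furin KO (orange, n = 5) library, ordered by mean; crosses are means computed with the longest transcript as the length. Tgfbr2, Ski, Smad4, Smad7 and Tgfb1 lie between 26.8 and 49.4 RPKM, apart from the other 5 genes at 13.1 RPKM or less, and the cross of Tgfb1 stands at 57.7 RPKM.

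By genotype, 0 of the 10 genes passed the edgeR quasi-likelihood test (Benjamini-Hochberg adjusted p = 1 for each), where 0.032% of the 12500 tested genes passed, 0.024% as higher and 0.008% as lower in Furin KO. At an unadjusted p under 0.05 there was 1, Smad7, as lower, against 3.21% of all genes in either direction and 1.6% as lower. DESeq2 and limma-voom also called 0. At 0 of the 10 did the groups lie apart without overlap, against 2.9% of all genes, 1.59% with Furin KO lower and 1.31% with it higher. 7 had a log2 fold change below 0 and 3 above, with a median of -0.03, and over all tested genes 50.2% lay below 0 and the median was -0.001. Across the 10 genes the 95% intervals reached no further than -0.48 and 0.41 on the log2 scale, so larger differences lie outside the interval of every gene. Because RNA was taken in bulk, fewer cells that express a gene and less of it per cell cannot be told apart in any of these values.

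**Figure D2:**
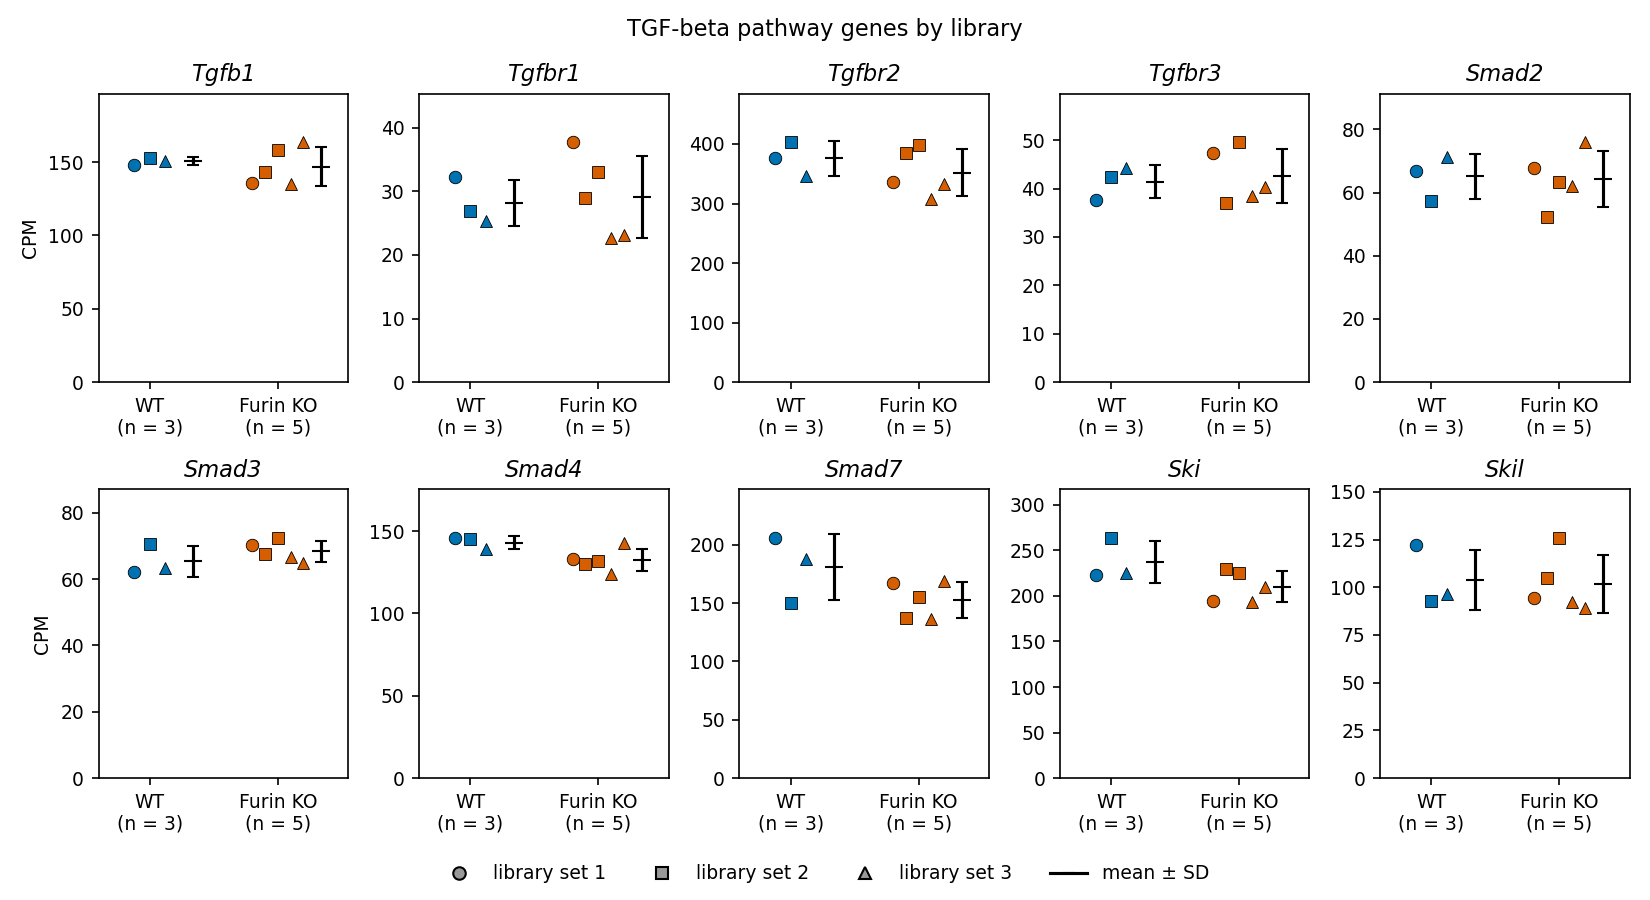
CPM of each of the 10 genes by library, WT (blue, n = 3) beside Furin KO (orange, n = 5), with the symbol shape giving the library set and the bar the mean ± SD. The groups overlap at all 10 genes, and the squares of the second set are the highest at Tgfbr2.

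The ligand Tgfb1 (ENSMUSG00000002603, GRCm38 chromosome 7, 25687002 to 25705077, plus strand) had 148, 153 and 151 CPM in WT replicates 1 to 3. In Furin KO replicates 1 to 5 it had 136, 143, 158, 135 and 164 CPM. The Furin KO libraries lay on both sides of the narrow WT range. Its log2 fold change of Furin KO over WT was -0.04, and the 95% interval from -0.24 to 0.16 spans folds of 0.85 to 1.12 (edgeR adjusted p = 1). The exact permutation test over the 8 libraries, two-sided, gave p = 0.625, where the smallest p it can give is 0.0179. The message of the FURIN substrate thus differed by less than the spread between libraries. Platelets are a rich source of TGF-beta1. As given above, 4 of their 5 markers were at 0 and the fifth, Itga2b, had 3.95 to 8.43 CPM. A platelet part in the Tgfb1 counts was not tested.

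The receptors did not pass. Tgfbr2 (ENSMUSG00000032440, chromosome 9, 116084293 to 116175360, minus strand), which binds the ligand and starts the kinase cascade, had 377, 404 and 346 CPM in WT. In the Furin KO replicates it had 336, 385, 399, 307 and 333 CPM. The spread of Tgfbr2 followed the library sets more than genotype, with the 3 libraries of the second set highest. Tgfbr2 had a log2 fold change of -0.09, with a 95% interval from -0.31 to 0.12 and p = 0.357 in the exact permutation test. It was -0.04 without WT replicate 2 and -0.15 without WT replicate 3.

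Tgfbr1 (ENSMUSG00000007613, chromosome 4, 47353222 to 47414931, plus strand), the kinase that passes the signal to SMAD2 and SMAD3, had 32.2, 26.9 and 25.3 CPM in WT. In Furin KO it had 37.8, 28.9, 33.0, 22.6 and 23.1 CPM. The 3 libraries of the third set were the lowest, and Furin KO replicates 1 and 3 and WT replicate 1 the highest. With a log2 fold change of 0.05 it had the widest interval of the 10 genes, from -0.31 to 0.41 (p = 0.929, exact permutation test), and Furin KO replicate 5 gave only 263 counts of it. Its sign turned without Furin KO replicate 1 (-0.06) and without WT replicate 3 (-0.02).

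Tgfbr3 (ENSMUSG00000029287, chromosome 5, 107106570 to 107289629, minus strand), the co-receptor, had 37.6, 42.4 and 44.3 CPM in WT. In Furin KO it had 47.4, 37.0, 49.7, 38.5 and 40.3 CPM. The groups overlapped and no library set stood out. For Tgfbr3 the log2 fold change of 0.04 had a 95% interval from -0.23 to 0.31 (p = 0.804, exact permutation test). It was -0.07 in the 8-week libraries alone, and -0.02 without WT replicate 1 or without Furin KO replicate 3. Gm43422, annotated on the same strand, shares exon sequence with Tgfbr3 and had 22 counts over the 8 libraries against 6098 for Tgfbr3.

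Smad4, the signal carrier that partners all activated SMADs, had the lowest coefficient of variation of CPM within the groups among the 10 genes. Smad4 (ENSMUSG00000024515, chromosome 18) had 146, 145 and 139 CPM in WT. In Furin KO it had 133, 130, 132, 124 and 143 CPM. 4 of the 5 Furin KO libraries lay below all WT libraries, and replicate 5, the library of lowest depth, lay among them. Smad4 had a log2 fold change of -0.11, with a 95% interval from -0.30 to 0.07 (edgeR unadjusted p = 0.215, adjusted p = 1). The exact permutation test gave p = 0.0893. Without Furin KO replicate 5 it was -0.14.

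Smad2 and Smad3 are phosphorylated by the activated receptor. Smad2 (ENSMUSG00000024563, chromosome 18) had 66.9, 57.4 and 71.3 CPM in WT, and 67.7, 52.1, 63.4, 62.1 and 76.1 CPM in Furin KO. Smad3 (ENSMUSG00000032402, chromosome 9, 63646767 to 63757994, minus strand) had 62.2, 70.5 and 63.2 CPM in WT, and 70.2, 67.5, 72.5, 66.7 and 64.7 CPM in Furin KO. The groups overlapped at both genes. Smad2 had a log2 fold change of -0.02 with a 95% interval from -0.28 to 0.24. Its sign turned without WT replicate 3 (0.051), without Furin KO replicate 2 (0.047) and, at 0.001, without WT replicate 1. Smad3 had a log2 fold change of 0.065 with an interval from -0.15 to 0.28, and it was above 0 in all 17 alternatives run, from 0.021 in mice of 8 weeks alone to 0.125 without WT replicate 2. The exact permutation test gave p = 0.875 for Smad2 and 0.321 for Smad3.

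**Figure D3:**
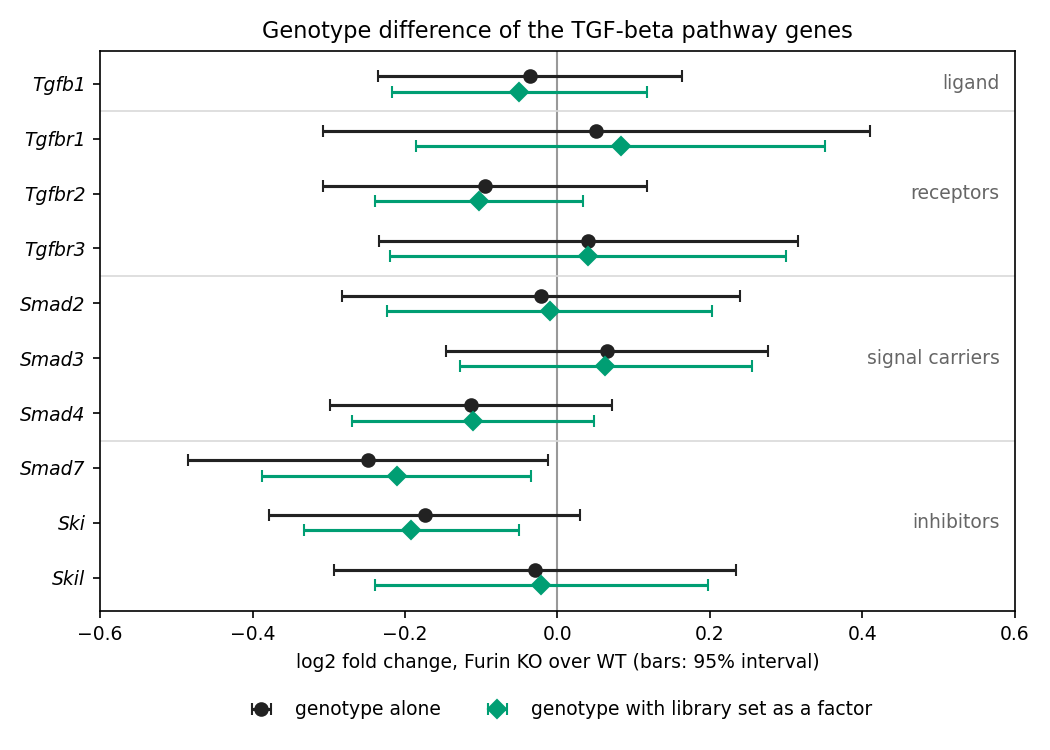
Log2 fold change of Furin KO over WT with its 95% interval for each of the 10 genes, from the fit with genotype alone (circles) and with the library set as a factor (diamonds). Intervals include 0 except at Smad7 in both fits and at Ski with the set as a factor, and no gene passed after adjustment over all genes. The sets come from the same counts, so the diamonds are a description.

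The inhibitors Smad7 and Ski had the lowest fold changes of the 10 genes, and Skil had one near 0. Smad7 (ENSMUSG00000025880, chromosome 18), which blocks the receptor complex and is itself induced by TGF-beta, had 206, 150 and 188 CPM in WT. In Furin KO it had 167, 137, 155, 136 and 169 CPM. WT replicate 2, of the second set, lay within the Furin KO range, and the other WT libraries lay above it. Smad7 had a log2 fold change of -0.25 with an SE of 0.11 and a 95% interval from -0.48 to -0.01 (edgeR unadjusted p = 0.0407, adjusted p = 1). The exact permutation test gave p = 0.107. The value moved most with single WT libraries: it was -0.14 without WT replicate 1 and -0.37 without WT replicate 2. Its 95% interval included 0 without WT replicate 1 or 3 and without Furin KO replicate 2, 3 or 4. The interval excluded 0 without WT replicate 2 and without Furin KO replicate 1 or 5. In the 8-week libraries alone Smad7 had -0.18 (95% interval -0.44 to 0.08).

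Ski (ENSMUSG00000029050, chromosome 4, 155154075 to 155222592, minus strand), a repressor that binds SMAD complexes, had 223, 264 and 225 CPM in WT. In Furin KO it had 194, 230, 225, 193 and 210 CPM. The 3 lowest libraries were Furin KO and the highest was WT, with overlap between. Ski had a log2 fold change of -0.17 with an SE of 0.10 and a 95% interval from -0.38 to 0.03 (edgeR unadjusted p = 0.0884, adjusted p = 1; p = 0.179 in the exact permutation test). Without WT replicate 2 it was -0.09.

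Skil (ENSMUSG00000027660, chromosome 3, 31095058 to 31122577, plus strand), a relative of Ski that TGF-beta also induces, had 122, 92.8 and 96.6 CPM in WT. In Furin KO it had 94.4, 105, 126, 92.2 and 89.2 CPM. Each group had a single high library, WT replicate 1 and Furin KO replicate 3. For Skil the log2 fold change of -0.03 had a 95% interval from -0.29 to 0.23 (p = 0.786, exact permutation test). It was 0.13 when only mice of 8 weeks were used, 0.10 without WT replicate 1 and 0.01 without Furin KO replicate 4 or without Furin KO replicate 5.

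The spread between libraries of 1 genotype exceeded counting error at every gene. At Tgfbr1 the coefficient of variation within groups was 19.5% and that of counting at most 6.17%. At Smad4 they were 4.41% and 2.48%. Much of that spread lay between the library sets at some genes: 90.1% of the variance of log2(CPM + 1) around the genotype means at Ski, 89.9% at Tgfbr2 and 83.5% at Tgfbr1, against 3.47% at Tgfbr3, 3.51% at Smad4 and a median of 44.1% over all tested genes. The sets were formed from the counts of all genes, these included, so these shares are a description.

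Tgfbr2 had 385 to 404 CPM in the 3 libraries of the second set and 307 to 377 CPM in the other 5. Ski had 225.1 to 263.6 CPM in the second set and 192.7 to 225.1 CPM in the others, so the groups met at 225.1 CPM. Of all tested genes 8.92% had a second set that did not overlap the other 5 libraries. The receptor and the repressor had the same genotype order in each set. At Tgfbr2 all 5 Furin KO libraries lay below the WT library of their own set, at 336 against 377 CPM in the first set, 385 and 399 against 404 CPM in the second set, and 307 and 333 against 346 CPM in the third set. At Ski all 5 did too, at 194 against 223 CPM, at 230 and 225 against 264, and at 193 and 210 against 225. Of all tested genes 6.22% had all 5 Furin KO libraries below the WT library of their set, and each set holds only 1 WT library.

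Because the library sets come from the same counts, p-values and intervals of a fit with the set as a factor are a description. Fitted with the library set as a factor, edgeR gave Ski a log2 fold change of -0.19 (SE 0.07, 95% interval -0.33 to -0.05, unadjusted p = 0.0103, adjusted p = 0.698). Tgfbr2 had -0.10 in the same edgeR fit (95% interval -0.24 to 0.03, adjusted p = 0.948) and Smad7 -0.21 (95% interval -0.39 to -0.04, adjusted p = 0.759). The intervals of Ski and Smad7 excluded 0 in this fit, and 0 of the 10 genes passed over all genes. How many of all tested genes had such an interval in this fit was not counted. Over all genes it called 8 higher and 4 lower, against 3 and 1 with genotype alone. Smad7 had log2 ratios of -0.30, -0.05 and -0.30 in the 3 sets, with 4 of 5 Furin KO libraries below their WT library. Skil had -0.37, 0.32 and -0.09, so that its direction differed between the sets. Smad4 had -0.13, -0.15 and -0.05.

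**Figure D4:**
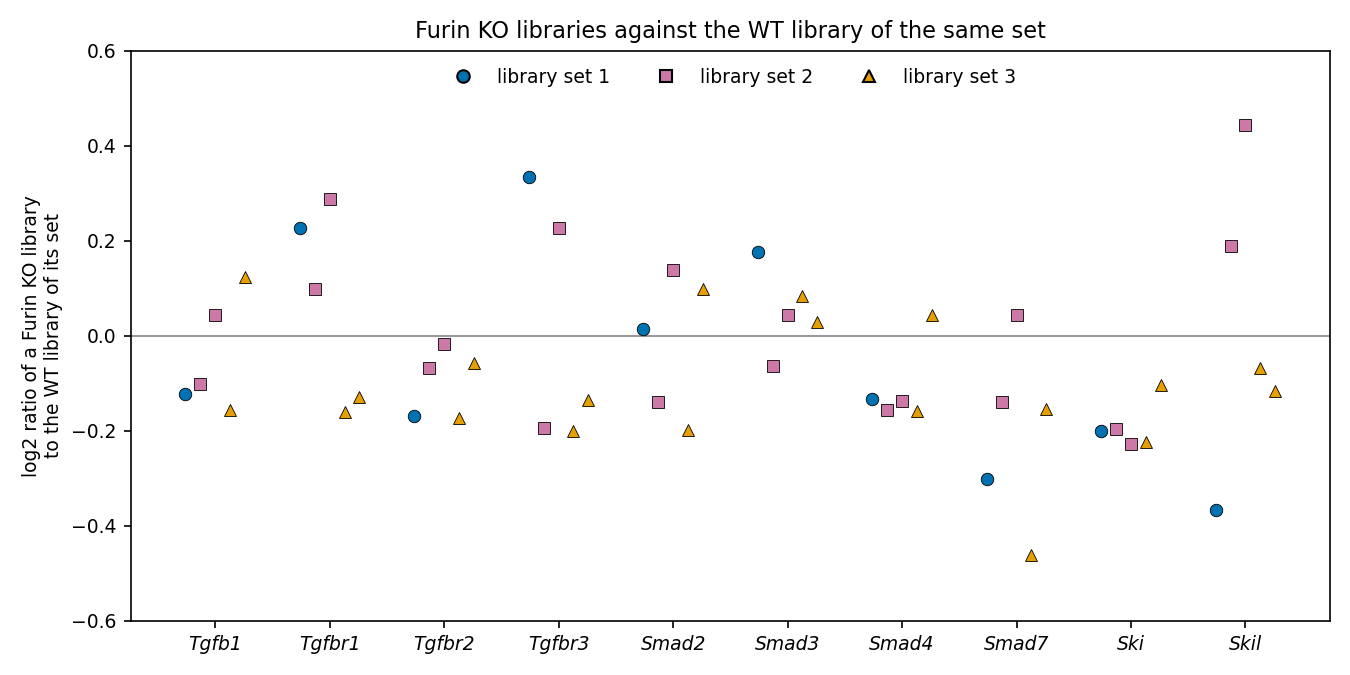
Log2 ratio of each of the 5 Furin KO libraries to the WT library of its own library set (n = 1 WT library a set) for the 10 genes; 0 marks equal CPM. All 5 points lie below 0 at Tgfbr2 and Ski, 4 of 5 at Smad4 and Smad7, and the points of Skil lie on both sides.

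The 250 bases before the RefSeq start of Tgfbr2 and the first 193 of the 250 before that of Ski (GRCm38.p6; the last 57 lie inside the GENCODE gene) are shown because these 2 genes were the highest in the same libraries and had all 5 Furin KO libraries below their WT library. Capitals mark CAGAC, the core letters that SMAD3 and SMAD4 bind, and GGGCGG, the GC box bound by SP1-type factors, each read on both strands.
Tgfbr2, chr9:116175364-116175613, minus strand: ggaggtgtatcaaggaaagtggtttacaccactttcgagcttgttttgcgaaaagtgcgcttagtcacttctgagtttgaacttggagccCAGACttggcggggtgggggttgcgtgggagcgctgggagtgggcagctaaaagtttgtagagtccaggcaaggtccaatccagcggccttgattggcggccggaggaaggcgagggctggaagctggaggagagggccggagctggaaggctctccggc
Ski, chr4:155222593-155222785, minus strand: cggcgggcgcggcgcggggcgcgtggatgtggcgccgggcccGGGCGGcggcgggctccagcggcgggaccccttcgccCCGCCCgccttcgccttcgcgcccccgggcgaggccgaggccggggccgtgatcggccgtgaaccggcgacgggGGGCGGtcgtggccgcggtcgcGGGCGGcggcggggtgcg
The Tgfbr2 window held 1 CAGAC and no GC box at a GC content of 58.4%. The full Ski window, at a GC content of 87.6%, held no CAGAC and 5 GC boxes, 4 of them in the bases shown. Of 32851 RefSeq windows of this length 42.2% held CAGAC, 32.7% the GC box and 6.75% TGANTCA, the letters bound by FOS and JUN proteins, and neither window held TGANTCA. The windows of these genes thus differed in base composition and in the letters searched, and a match is not a measured binding site. The windows of Tgfb1, Smad3 and Tgfbr1 at its first start held 5, 2 and 2 GC boxes and no CAGAC.

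Beyond the 10 genes, 67 others of the pathway were read from lists by role. 45 were tested, 0 passed edgeR over all genes, and 3 had an unadjusted p under 0.05 (Smurf1, Itgae and Tbx21), against 3.21% of all tested genes. Of these 3, Itgae and Tbx21 were known from earlier results when the lists were drawn up, so this count is a description. Of the 45 tested genes, 26 had fold changes below 0 and 19 above, with a median of -0.05, where 50.2% of all tested genes lay below 0. DESeq2 called 1 of them, Tbx21, as higher (adjusted p = 0.0011). When the library set was added as a factor, edgeR called 1, Itgae, as lower (adjusted p = 0.0067), and with a filter of 1 count it called both. The sets come from the same counts, so the call with the set as a factor is a description.

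Of other ligands, Tgfb2 had 56 counts over the 8 libraries and Tgfb3 had 66, and neither passed the filter, so Tgfb1 carried nearly all TGF-beta transcript counts. Of 11 genes of latency and activation, 3 were tested and 6 had 0 counts in all libraries: Ltbp1, Ltbp2, Lrrc32, Itgb6, Itgb8 and Thbs1. LRRC32 (GARP) holds latent TGF-beta on regulatory T cells, and the integrins with the chains ITGB6 and ITGB8 release it. A count of 0 allows up to 0.143 CPM in the deepest library and 0.265 CPM in the shallowest (3 counts, counting error only). Ltbp3 had 12 counts, all in Furin KO replicate 1, and Ltbp4 11, all in Furin KO replicate 4, so single libraries can hold several reads where the others hold none. Nrros, which anchors latent TGF-beta in myeloid cells, had 109 ± 15 CPM in Furin KO and 108 ± 4.20 CPM in WT, and Itgav, the shared integrin chain, 23.3 ± 3.72 and 28.2 ± 4.08 CPM (log2 fold changes 0.01 and -0.28, edgeR adjusted p = 1 for each).

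Of 10 other receptors of the superfamily, 8 were tested, 4 above and 4 below 0 with a median of 0.01, and 0 passed edgeR. The activin type I receptor Acvr1b was at 80.0 ± 6.76 CPM in Furin KO and 74.2 ± 4.71 CPM in WT (log2 fold change 0.11). The BMP type II receptor Bmpr2 was at 4.57 ± 1.40 and 5.54 ± 1.41 CPM (-0.28, and -0.02 in mice of 8 weeks alone), and Acvr1, a BMP type I receptor, at 0.312 ± 0.323 and 0.578 ± 0.502 CPM (-0.98, 95% interval -3.39 to 1.43). Activin and BMP receptors other than Acvr1b were thus scarce or absent from the counts, except Eng, an endothelial co-receptor, at 78.6 and 75.4 CPM, and Acvrl1 at 15.7 and 16.1 CPM. Of the other SMADs, the BMP carriers Smad1 (29.2 ± 4.09 and 28.7 ± 1.34 CPM, log2 fold change 0.02) and Smad5 (41.2 ± 4.85 and 42.6 ± 8.88 CPM, -0.05) were tested, and Smad6 and Smad9 had 4 and 3 counts.

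Of 13 adaptors and positive cofactors, 10 were tested, 7 below and 3 above 0 with a median of -0.06, and 0 passed edgeR. Runx1, a transcription factor that works with SMADs, had 52.9 ± 6.56 CPM in Furin KO and 61.5 ± 8.66 CPM in WT (log2 fold change -0.22, and -0.12 without WT replicate 2). Strap, a receptor-binding protein that is also known as an inhibitor, had -0.12 (-0.04 without WT replicate 3) and the acetyltransferase Ep300 -0.10 (-0.007 without WT replicate 1). Of 13 other inhibitors all were tested, 10 below and 3 above 0 with a median of -0.11, and 0 passed edgeR. Smurf1, a ubiquitin ligase that SMAD7 recruits to the receptors, had 78.7 ± 6.69 CPM in Furin KO and 92.4 ± 12.2 CPM in WT (-0.23, 95% interval -0.46 to -0.003, edgeR unadjusted p = 0.0472). It was -0.12 without WT replicate 2 (95% interval -0.37 to 0.14), and with RLE size factors the interval reached 0.002. Ldlrad4, which keeps SMAD2 and SMAD3 from the receptor, had 19.2 ± 3.90 and 24.3 ± 1.95 CPM (-0.34), and Bambi, a decoy receptor, 0.837 ± 0.570 and 1.78 ± 1.17 CPM (-1.09, 95% interval -2.74 to 0.56). Bambi had -0.46 without WT replicate 3.

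Genes that TGF-beta raises had 6 of 7 tested members below 0, with a median of -0.25, and genes that it lowers in T cells had 6 of 7 above 0, with a median of 0.32, beside -0.001 over all tested genes. Itgae (CD103) had 348 ± 40.0 CPM in Furin KO and 465 ± 58.1 CPM in WT (log2 fold change -0.42, edgeR adjusted p = 0.690), and Tbx21 (T-bet) 6.73 ± 1.5 and 2.02 ± 0.826 CPM (1.74, adjusted p = 0.171). 0 members of either list passed. Itgae and Tbx21 were known from earlier results when the lists were drawn up, and Smad7 and Skil belong to the first list as well, whose other 5 members had 4 below 0 and a median of -0.34. Of those 5, Pmepa1, Ldlrad4 and Tgif1 were also counted among the other inhibitors above, so the first list is not a separate readout. Without Itgae the first list had 5 of 6 below 0 and a median of -0.21, and without Tbx21 the second had 5 of 6 above 0 and a median of 0.23. Among members with a mean of at least 5 CPM the second list had 3 of 4 above 0 and a median of 0.08. That cut also leaves out Tbx21 itself. Myc had 308 ± 79.4 and 245 ± 30.3 CPM (0.33) and Eomes 44.1 ± 7.35 and 39.9 ± 0.445 CPM (0.15), and the groups overlapped at both. Without Furin KO replicate 3 Myc had 0.49 (edgeR adjusted p = 0.230). Of the members of both lists, Itgae and Tbx21 were those at which the groups did not overlap. Over all tested genes 2.9% had no overlap, 1.59% with Furin KO lower and 1.31% with it higher. Because both genes were known beforehand, their separation is a description. Foxp3, the regulatory T cell factor and a member of the first list, had 1.07 ± 0.846 and 2.06 ± 0.0859 CPM. Among other markers of regulatory T cells, Ctla4 had 3.59 to 8.15 CPM in Furin KO and 0.365 to 3.57 CPM in WT, Ikzf2 had 4.36 to 14.6 and 7.78 to 12.3 CPM, and Cd4 was at most 0.892 CPM. Their part in these values was not tested.

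**Figure D5:**
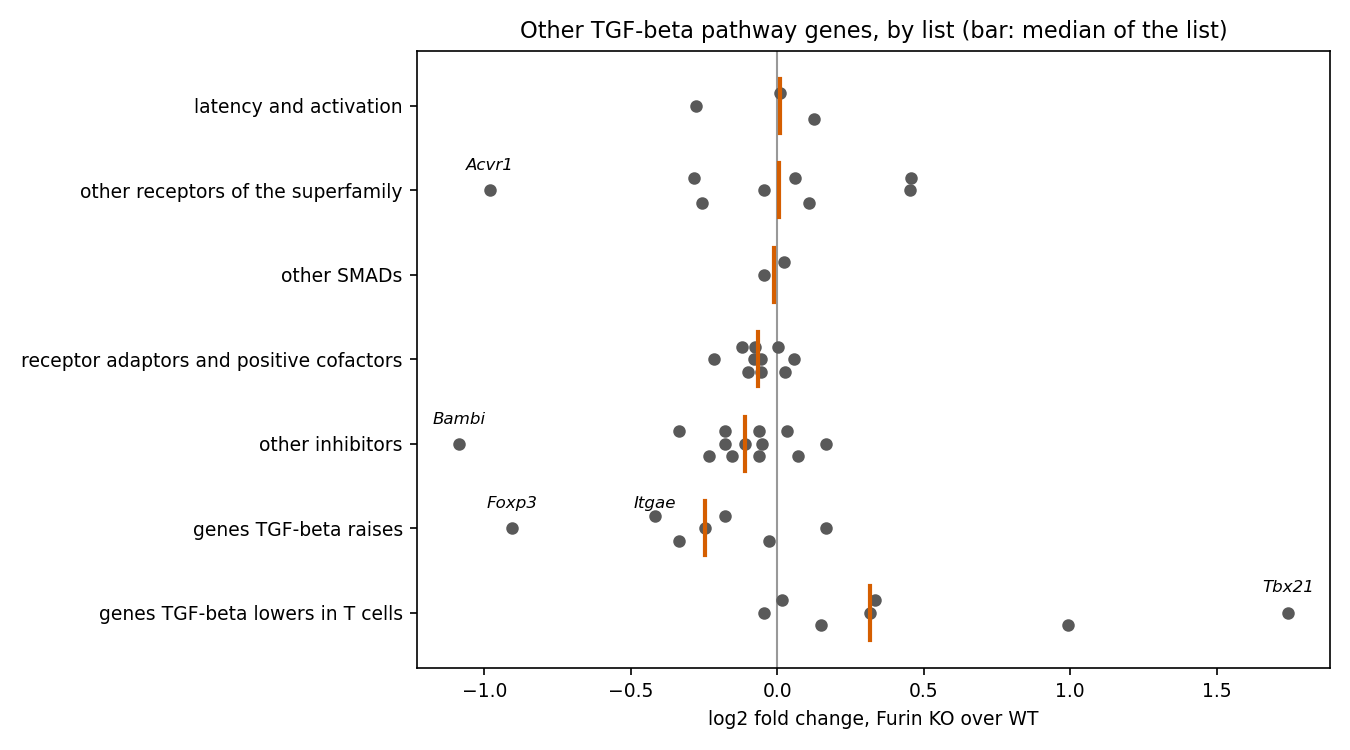
Log2 fold change of Furin KO over WT for the tested genes of 7 lists of other pathway genes (points; some genes stand in 2 lists, and Smad7 and Skil are among the genes that TGF-beta raises), with the median of each list as a bar. The medians lie between -0.11 and 0.01 except for genes that TGF-beta raises (-0.25) and genes that it lowers (0.32). Among members with a mean of at least 5 CPM the median of the genes that it lowers was 0.08.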

How the data were processed

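RNA sequencing counts of 8 libraries were analysed, 5 Furin KO and 3 WT by their genotype labels. The authors deposited raw whole-number counts per Ensembl gene. Per the submitters' processing notes the tools included STAR, FastQC, Trim Galore and DESeq2 1.24.0, and the genome build was GRCm38. For the counting program, annotation, strand setting and treatment of reads that match several genes, nothing is given in the sources used here. Columns were matched to samples by title. GENCODE M21 (GRCm38) matched 55394 of 55573 IDs and gave symbols, positions and exon lengths, and promoter windows came from RefSeq on GRCm38.p6, with 5 of the 10 genes matched.

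Counts were tested with edgeR 4.0.16 (limma 3.58.1, R 4.3.3): TMM factors, filterByExpr by genotype, two-sided quasi-likelihood test with genotype as the only term, Benjamini-Hochberg adjustment over 12500 genes, threshold 0.05. The script was tested on simulated data. Exact two-sided permutation tests used log2(CPM + 1) over 56 arrangements. The common biological coefficient of variation was 0.202, and total counts of 11308220 to 21040431 set the precision.

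Library sets came from average-linkage clustering of pairwise chi-square distances into 3 sets (10.9 to 16.6 per degree of freedom within sets, 16.7 to 38.3 between), so no libraries agreed within sampling noise. Replicate numbers follow accession order. The 10 genes, lists and alternatives were chosen with earlier results of these data known. Furin and the 10 genes were named, and of each other list up to 3 tested genes of lowest p. Other genes were named after their values were seen, to state which members were absent or abundant. Alternatives were RLE factors, library size alone, a filter of 1 count or of a CPM of 1 in 3 libraries, DESeq2 1.42.0, limma-voom, age or library set as a factor, the 8-week libraries alone, each library left out, and another gene length.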

Additional observations from a re-analysis of the deposited data

Results flagged for a closer look

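Dixon's test, applied to the 5 Furin KO libraries of 28 genes named here, set 1 value apart, and about 1.4 would arise by chance. Myc stood at 170 CPM in Furin KO replicate 3, while the other 4 ran from 312 to 362 CPM. This library belongs to the second set, low in Fos, and so does Furin KO replicate 2, which lay among the other 4.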

How the results depend on the processing

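No gene of the 10 passed in any of the 17 alternatives, and 6 of them kept their sign in all, Tgfb1, Tgfbr2, Smad3, Smad4, Smad7 and Ski. Leaving out 1 library moved Tgfbr1 between -0.058 and 0.161, Tgfbr3 between -0.020 and 0.094, Smad2 between -0.106 and 0.051, Skil between -0.119 and 0.105, Nrros between -0.071 and 0.067, Smad5 between -0.208 and 0.049 and Smad1 between -0.017 and 0.108 on the log2 scale. In the 8-week libraries alone Tgfbr3 had -0.066 and Skil 0.127. Nrros had -0.012 by limma-voom, -0.018 with age and -0.020 with the library set as a factor, and Smad1 had -0.013 and -0.012 with these factors. Acvr1 has no value without Furin KO replicate 5 or with a CPM minimum of 1 in 3 libraries, where it failed the filter. The cause of these moves was not tested. Over all genes, 3 were called higher and 1 lower, against 25 and 13 with a filter of 1 count, 12 and 3 by DESeq2 and 8 and 4 with the library set as a factor, and limma-voom called 2 lower. Of the other pathway genes 0 were called, against 2 with a filter of 1 count (Itgae and Tbx21), 1 by DESeq2 and 1 with the library set. With the longest transcript as the length, Tgfb1 had 57.7, Smad4 40.3, Skil 15.2 and Smad3 13.2 RPKM. Other size factors shifted the median of all genes by at most 0.005. Leaving out 1 library also moved uncalled genes by over 1.5 times: Bmpr2 to between -0.456 and -0.088, Acvr1 to between -1.519 and -0.503, Acvr1b to between 0.066 and 0.161, Eomes to between 0.09 and 0.228, Bambi to between -1.462 and -0.456 and Tgfb1 to between -0.077 and -0.004. No paired analysis was possible because the labels give the groups no shared replicate numbers; the library sets used as a factor come from the counts, not from a label.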

Other observations

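Ratios between members, taken per length of exon in each library, described how the parts of the pathway stood to each other. Tgfbr1 was at 0.104 ± 0.0217 of Tgfbr2 in Furin KO (n = 5) and 0.0940 ± 0.0119 in WT (n = 3), with the highest ratio, 0.141, in Furin KO replicate 1. Smad2 was at 0.596 ± 0.0942 of Smad3 in Furin KO and 0.635 ± 0.106 in WT, and the ratio ran from 0.487 in Furin KO replicate 2 to 0.743 in Furin KO replicate 5. Smad7 was at 0.946 ± 0.0651 of Smad4 in Furin KO and 1.04 ± 0.165 in WT, where the lowest of all libraries, 0.853, and the highest, 1.16, were both WT. Ski was at 3.64 ± 0.361 times Skil in Furin KO and 4.07 ± 0.879 times in WT. The groups overlapped in all 4 ratios.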
